A study of Mus musculus with 6 samples.

Results

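The genes described here are those of MHC class I and class II antigen presentation. They are every gene whose symbol begins with H2- in the deposited table of 6 libraries, except H2-Ke2 and H2-Ke6, together with B2m, Tap1, Tap2, Tapbp, Psmb8, Psmb9, Psmb10, Nlrc5, Ciita, Cd74 and Ctss. This gave 53 genes of 24067 in the table, 40 of class I and 13 of class II. The libraries came from tumour-bearing tongues of C57BL/6 mice, and by the labels 3 were wild type for HuR (WT) and 3 were HuR knock-outs (KO). HuR is the product of Elavl1 and binds AU-rich stretches of messenger RNAs. The mice of both groups had received the oral carcinogen 4-nitroquinoline 1-oxide for 16 weeks, were kept for a further 12 weeks and were about 34 weeks old. Which allele was deleted, and in which cells, is not given in the sources used here. The comparison of labelled KO with labelled WT asks which transcripts differ between tongues labelled as without and with HuR after the carcinogen, here for class I against class II.

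MHC class I molecules are made of a heavy chain and beta-2-microglobulin, and show peptides from the inside of almost any nucleated cell to CD8 T cells. The peptides are cut by the proteasome, whose immunoproteasome form carries 3 exchanged subunits, are pumped into the endoplasmic reticulum by the TAP transporter and are loaded there with the help of tapasin. MHC class II molecules are made of an alpha and a beta chain, travel with the invariant chain and show peptides from endosomes to CD4 T cells, and they are expressed mainly by dendritic cells, macrophages and B cells. NLRC5 is the transactivator of class I genes and CIITA that of class II genes. In mice the heavy chains and class II chains lie together in the H2 complex on chromosome 17. The C57BL/6 strain makes no class II E alpha chain.

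Class I and class II promoters share a module of X and Y boxes, through which CIITA and NLRC5 act. The stretches below are from members whose results are described further on. Both cores named below are marked in H2-D1, H2-Q4, H2-Eb1 and H2-DMb1. Only the Y core is marked in H2-K1, B2m and H2-Aa, and neither in H2-Q10. The stretches were taken at RefSeq's gene starts on GRCm38.p6, which held a promoter (250 bases before to 50 after a start) for 37 of the 53 genes. All are written 5′ to 3′ on the strand of the gene. Capitals mark, in the orientation of the gene and where present, an X box core (ACNGATG), a Y box core (ATTGG), the kappa B core of enhancer A (GGGATTCCC) and an interferon-stimulated response element core (GAAANNGAA). The classical class I genes come first, at chr17:35262909-35263037 (plus strand) for H2-D1 and chr17:34000344-34000472 (minus strand) for H2-K1, followed by H2-Q4 at chr17:35379493-35379557 (plus strand) and B2m at chr2:122147533-122147653 (plus strand).
H2-D1: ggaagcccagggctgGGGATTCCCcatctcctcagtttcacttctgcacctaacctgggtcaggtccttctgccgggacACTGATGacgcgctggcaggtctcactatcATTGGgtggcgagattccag
H2-K1: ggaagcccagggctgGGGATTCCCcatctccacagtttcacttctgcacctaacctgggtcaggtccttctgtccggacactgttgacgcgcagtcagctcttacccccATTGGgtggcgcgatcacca
H2-Q4: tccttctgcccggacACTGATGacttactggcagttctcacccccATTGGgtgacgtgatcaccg
B2m: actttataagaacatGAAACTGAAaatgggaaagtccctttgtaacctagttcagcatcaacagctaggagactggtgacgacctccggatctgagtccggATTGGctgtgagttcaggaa

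The class II stretches are at chr17:34305764-34305827 (plus strand) for H2-Eb1, chr17:34153085-34153149 (plus strand) for H2-DMb1 and chr17:34287852-34287911 (minus strand) for H2-Aa. The whole promoter of H2-Q10, the only member past the threshold, is at chr17:35469839-35470138 (plus strand) and holds none of the 4 motifs in these letters on either strand.
H2-Eb1: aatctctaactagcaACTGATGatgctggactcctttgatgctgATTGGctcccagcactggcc
H2-DMb1: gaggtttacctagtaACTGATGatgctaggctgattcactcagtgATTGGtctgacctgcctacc
H2-Aa: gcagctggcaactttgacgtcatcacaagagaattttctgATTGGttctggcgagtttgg
H2-Q10: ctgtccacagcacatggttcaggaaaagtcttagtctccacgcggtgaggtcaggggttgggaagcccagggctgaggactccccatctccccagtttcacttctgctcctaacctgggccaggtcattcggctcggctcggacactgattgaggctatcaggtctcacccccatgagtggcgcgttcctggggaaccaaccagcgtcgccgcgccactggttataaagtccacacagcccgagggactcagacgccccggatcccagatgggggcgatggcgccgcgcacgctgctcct

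On either strand, the X box core was present in the promoters of 21 of the 37 members, and in 9.87% of 32544 distinct promoters of all genes. The Y box core was present in 31 of the 37 and in 37.4% of all. With the first letter of the X core 29 or 30 bases ahead of the first letter of the Y core in 1 orientation, the pair was present in 9 members, H2-D1, H2-DMb1, H2-DMb2, H2-Eb1, H2-Eb2, H2-M3, H2-Q4, H2-Q6 and H2-Q7, and in 13 of the 32544 promoters. The letters and the spacing were set with these promoters in view, and the motifs do not overlap each other in the stretches shown. H2-K1 has the kappa B and Y letters of H2-D1 at the same distance from each other but not its X letters. The kappa B letters were found in H2-D1, H2-K1, H2-Q6 and H2-Q7 and in 0.353% of all promoters, and the response element core in B2m, Ctss, H2-T22 and H2-T23 and in 8.53%. Members were counted by gene, with a match in any promoter of the gene, and all genes by distinct promoter, so the shares are in unlike units. These matches describe letters in a window and not binding.

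Total gene counts were 29543352 to 51520707 per library, so that 1 CPM (counts per 1000000 of the TMM-scaled library size) stood for 25.6 to 53.0 counts. Elavl1 was no lower in the labelled KO libraries (67.6 ± 9.81 CPM against 55.1 ± 6.91 CPM, SD, n = 3, log2 fold change 0.29 ± 0.15, edgeR adjusted p = 0.180), and directions below are those between the labels. Keratinocyte and skeletal muscle markers were high in all 6 libraries, and none of these genes was at 0. KO replicates 2 and 3 had the Xist level of females, while KO replicate 1 and the 3 WT libraries had Y-linked transcripts. WT replicate 1 lay nearer the KO libraries than WT replicates 2 and 3 did in muscle, leukocyte and T cell marker sums. The labels do not say how the replicates of a group arose or whether each is a separate animal, so the p-values cover only the spread among these 6 samples. KO replicate 1 and KO replicates 2 and 3, which differ in Xist and Y-linked transcripts, carry RNA of different animals.

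Antigen presentation transcripts were mostly somewhat higher in the libraries labelled KO, but almost none passed an adjusted p under 0.05 by edgeR. Of the 53 members 9 had 0 counts in all libraries and 34 passed the filter on low counts. Among these 34, 27 had a log2 fold change above 0. By edgeR 1 was higher at an adjusted p under 0.05, H2-Q10, where 4.81% of all 15903 genes tested were called higher, and 0 were lower, where 7.43% of all genes were. At an unadjusted p under 0.05, 10 of the 34 were higher and 1 lower, beside 18.2% and 20.3% of all genes. DESeq2 called 4 higher and 1 lower, beside 12.6% and 16.3% of the 15277 genes to which it gave an adjusted p, and limma-voom 2 and 0, beside 6.17% and 8.02%. At an adjusted p under 0.05 the members' shares of calls were thus near or below those of all genes by these 3 tests. DESeq2 gave no adjusted p to H2-Oa, so its member count and its share of all genes rest on unlike sets. By edgeR's unadjusted p the members' share higher was above that of all genes, and their share lower was below it. In the authors' deposited table, 4 of 31 members with an adjusted p were higher in labelled KO (12.4% of all genes there) and 1 was lower (16.3%). The higher ones in the authors' deposited table were Ctss, H2-M2, H2-Q10 and Nlrc5, and the lower one was H2-T24. The libraries labelled KO lay entirely above those labelled WT in 6 of the 34, beside 22.0% of all genes tested, and entirely below in 0, beside 22.1%.

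The median log2 fold change was 0.20 over the 23 class I genes tested and 0.51 over the 11 class II genes tested, beside 0.02 over all genes. At an unadjusted p under 0.05 by edgeR, 3 of the 23 class I genes were higher and 1 lower. Of the 11 class II genes 7 were higher and 0 lower, beside 18.2% and 20.3% of all genes. The KO libraries lay entirely above the WT libraries in 2 of the 23 and 4 of the 11, beside 22.0% of all genes. The count of calls depended on single libraries. When WT replicate 1 was left out, edgeR called 10 of 35 members higher, beside 17.9% of all genes, and 1 lower, beside 18.1%. The higher ones were Cd74, Ciita, Ctss, H2-Aa, H2-Ab1, H2-Eb1, H2-K1, H2-M2, H2-Q10 and Nlrc5, and the lower one was H2-T24. Without KO replicate 1, KO replicate 2, KO replicate 3 or WT replicate 2 the count of members was 0 in either direction, with 11, 3, 7 and 4 members at an unadjusted p under 0.05. Calls were nearly absent from the whole table in these fits too, at 0.0251%, 0%, 0.306% and 0% of all genes higher and 0.0376%, 0%, 0.0188% and 0.00624% lower, so these counts of 0 say nothing particular about the members. Without WT replicate 3 the only call among the members was H2-Q10, beside 1.81% of all genes higher and 2.69% lower.

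**Figure D1:**
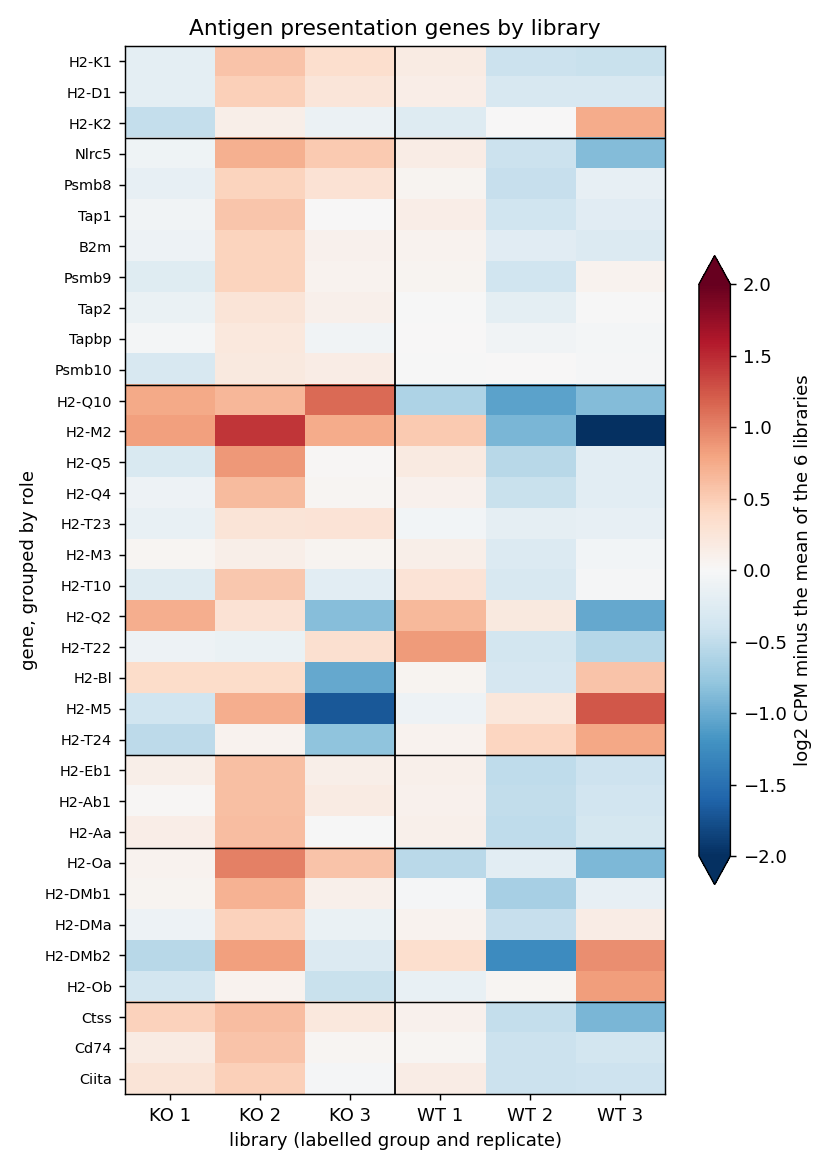
Each row is 1 of the 34 tested members, grouped by role, and each column 1 library. Colour gives log2 CPM minus the mean of the 6 libraries, with the scale ending at -2 and 2. KO replicate 2 is the highest library in 24 of the 34 genes, and H2-Q10 and H2-M2 are the class Ib genes with all KO libraries above all WT libraries.

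The classical heavy chains H2-K1 and H2-D1 present peptides to CD8 T cells. H2-K1 had 379, 645 and 550.1 CPM in the KO libraries, in the order of their replicate numbers, and 487, 323 and 321 CPM in the WT libraries (log2 fold change 0.48 ± 0.26, 95% interval -0.11 to 1.07, edgeR adjusted p = 0.201). KO replicate 1 lay below WT replicate 1, so the groups overlapped. H2-D1 stood at 143, 228 and 194 CPM in the KO libraries and 179.5, 131 and 132 CPM in the WT libraries (0.35 ± 0.21, edgeR adjusted p = 0.235), with the same overlap. The ratio of H2-K1 to H2-D1 within a library was 2.65, 2.82 and 2.84 in the KO libraries and 2.71, 2.47 and 2.43 in the WT libraries, so the 2 genes differed between libraries by like amounts. H2-K2, annotated as a transcribed pseudogene, was at 3.44 to 5.18 CPM in the KO libraries and 3.98 to 7.97 CPM in the WT libraries. H2-L, which C57BL/6 mice lack, had 0 counts. Because H2 heavy chain genes are close copies of each other, it is uncertain how reads were divided among them.

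B2m, the light chain shared by all class I molecules, stood at 335, 486 and 378 CPM in the KO libraries and 376, 305 and 297 CPM in the WT libraries (0.29 ± 0.19, edgeR adjusted p = 0.281). Its groups overlapped through KO replicate 1 and WT replicate 1. Per kilobase of annotated exon, averaged over the 6 libraries, B2m had the highest level of the members with a gene model, at 422 CPM. Cd74 followed at 162 and H2-K1 at 153 CPM per kilobase, a gap smaller than their spread between libraries. H2-D1 had 65.1, H2-Eb1 58.8, H2-Ab1 48.4 and H2-Aa 35.5 CPM per kilobase. B2m overlaps the opposite-strand gene Patl2 over 5398 bases, and the strand setting of the counting is not given in the sources used here.

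The TAP transporter subunits, tapasin and the immunoproteasome subunits form the machinery that makes and loads class I peptides. All 8 genes of this group, with B2m and Nlrc5, had a log2 fold change above 0, between 0.03 and 0.74. By edgeR 0 of 8 passed, with 1 at an unadjusted p under 0.05, while DESeq2 called 1 and limma-voom 0. KO replicate 2 was the highest library in all 8. Tap1 stood at 58.7, 89.9 and 61.9 CPM in the KO libraries and 67.6, 46.5 and 52.8 CPM in the WT libraries (0.33 ± 0.20, edgeR adjusted p = 0.252). Tap2, its partner, stood at 44.4, 58.1 and 52.2 against 48.2, 42.3 and 48.5 CPM (0.15 ± 0.13). For both, WT replicate 1 was above KO replicate 1. Tapbp, which encodes tapasin, was nearly level at 110, 130 and 108 against 113, 107 and 109 CPM (0.08 ± 0.12, 95% interval -0.20 to 0.35).

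The immunoproteasome subunits Psmb8, Psmb9 and Psmb10 replace Psmb5, Psmb6 and Psmb7 of the constitutive proteasome. Psmb8 stood at 26.0, 39.5 and 35.5 CPM in the KO libraries and 30.2, 21.1 and 25.8 CPM in the WT libraries (0.39 ± 0.19, edgeR adjusted p = 0.174). Psmb9, which overlaps Tap1 on the opposite strand over 212 bases, stood at 14.9, 24.1 and 18.5 against 18.3, 13.4 and 18.5 CPM (0.20 ± 0.21). Psmb10 stood at 20.2, 28.6 and 27.7 against 24.9, 25.2 and 24.8 CPM (0.03 ± 0.15). In all 3 genes KO replicate 1 lay within or below the WT range. Within a library, the ratio of Psmb8 to Psmb5 was 0.534, 0.848 and 0.670 in the KO libraries and 0.658, 0.460 and 0.475 in the WT libraries. The ratio of Psmb9 to Psmb6 was 0.128, 0.171 and 0.128 against 0.149, 0.103 and 0.125, and that of Psmb10 to Psmb7 was 0.144, 0.194 and 0.179 against 0.165, 0.140 and 0.125. The groups overlapped in each of these ratios, which do not depend on the scaling of libraries.

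Nlrc5, the class I transactivator, had the widest gap of this group. It stood at 55.3, 96.3 and 84.0 CPM in the KO libraries and 65.0, 43.6 and 32.0 CPM in the WT libraries (0.74 ± 0.29, 95% interval 0.09 to 1.40, edgeR adjusted p = 0.100). WT replicate 1 lay above KO replicate 1, and without that WT library the value was 1.07 (edgeR adjusted p = 0.0174). DESeq2 called Nlrc5 higher, and the authors' deposited table gives a log2 fold change of WT over KO of -0.65 with an adjusted p of 0.0475.

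**Figure D2:**
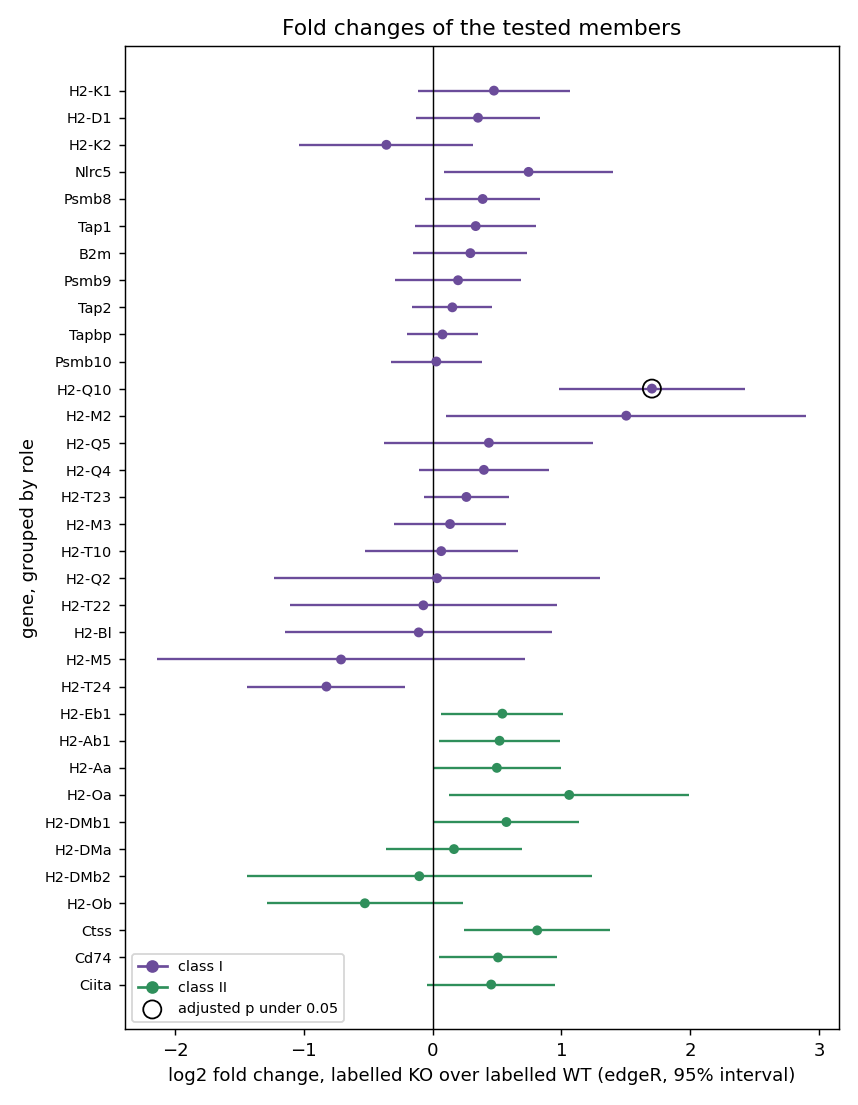
Points are log2 fold changes of labelled KO over labelled WT for the 34 tested members, with 95% intervals (edgeR, 3 libraries a group), in purple for class I and green for class II. H2-Q10 is the only gene ringed as past an adjusted p of 0.05, and most class II genes lie near 0.5 while most class I machinery genes lie between 0 and 0.4.

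Class Ib heavy chains are less variable and mostly less abundant than H2-K1 and H2-D1, and several have specialised ligands. Of the 28 class Ib genes 7 had 0 counts in all libraries, among them H2-Q6, H2-Q7 and H2-Q9, and 12 passed the filter. How reads were divided among close copies is uncertain, so 0 counts need not mean that a gene was silent. Of the 12 tested edgeR called 1 higher and 0 lower, beside 4.81% and 7.43% of all genes. H2-Q10, which encodes a soluble class I molecule best known from liver, had 44, 34 and 66 counts in the KO libraries and 13, 13 and 8 in the WT libraries. These are 0.959, 0.899 and 1.25 CPM against 0.373, 0.271 and 0.313 CPM, and every KO library was above every WT library. On the log2 scale the KO libraries were 1.70 ± 0.31 higher (95% interval 0.98 to 2.43), with an edgeR adjusted p of 0.0325. It stayed between 1.42 and 1.85 over 17 alternatives and was past the threshold in 8 of them. Without KO replicates 1, 2 or 3 or WT replicate 2 the edgeR adjusted p was 0.126, 0.129, 0.0626 and 0.130. The authors' deposited table gives -1.33 for WT over KO, with an adjusted p of 0.00140.

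H2-M2, a class Ib gene of the telomeric M region, stood at 4.62, 7.04 and 4.34 CPM in the KO libraries and 3.76, 1.38 and 0.430 CPM in the WT libraries. All KO libraries were above all WT libraries, by a small margin over WT replicate 1. On the log2 scale it was 1.50 ± 0.61 higher (edgeR adjusted p = 0.111), and 2.49 higher without WT replicate 1 (edgeR adjusted p = 0.00777). H2-T24, singled out after its values were seen, ran the other way, at 8.35, 12.7 and 6.89 CPM in the KO libraries and 12.6, 16.2 and 20.5 CPM in the WT libraries. The groups touched, with KO replicate 2 just above WT replicate 1 (-0.82 ± 0.27, edgeR adjusted p = 0.0694). H2-T24 overlaps A930015D03Rik, an antisense gene, over 14866 bases, so reads of the pair may be mixed. A930015D03Rik also overlaps H2-T23 over 3083 bases and H2-T22 over 1308 bases. On the same strand, H2-T10 overlaps Gm7030 over 5590 bases and Tapbp overlaps Zbtb22 over 3422 bases.

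The other class Ib genes gave no call by edgeR. H2-T23 encodes Qa-1, which presents leader peptides of other class I molecules to inhibitory receptors of NK cells. It stood at 34.0 ± 5.34 CPM against 28.3 ± 1.36 CPM (SD, n = 3, 0.26 ± 0.14, edgeR adjusted p = 0.207). H2-Q4 had 61.0 ± 17.1 CPM in the KO libraries and 46.3 ± 8.66 CPM in the WT libraries (0.40 ± 0.22, edgeR adjusted p = 0.207), and H2-M3, which presents formylated peptides, at 4.14 ± 0.128 against 3.77 ± 0.510 CPM. H2-T10, H2-Q5, H2-T22, H2-Q2, H2-Bl and H2-M5 had log2 fold changes between -0.71 and 0.44 with groups that overlapped. The 19 members that did not pass the filter, 17 of class I and 2 of class II, were at no more than 0.450 CPM in any library.

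The class II chains H2-Aa, H2-Ab1 and H2-Eb1 encode the A alpha, A beta and E beta chains. They had nearly the same log2 fold change, 0.50 to 0.54. H2-Aa stood at 143, 201 and 131 CPM in the KO libraries and 141, 92.3 and 102 CPM in the WT libraries (0.50 ± 0.22, edgeR adjusted p = 0.129). H2-Ab1 stood at 122, 182 and 135 against 128, 85.7 and 92.8 CPM (0.52 ± 0.20, edgeR adjusted p = 0.106). H2-Eb1 stood at 120.0, 167 and 119.5 against 118.5, 77.7 and 83.2 CPM (0.54 ± 0.21, edgeR adjusted p = 0.0980). In each of the 3 genes WT replicate 1 was level with the lower KO libraries, and only in H2-Eb1 did the groups not overlap, by about 1 CPM. By edgeR 0 of the 3 passed, with all 3 higher at an unadjusted p under 0.05, and DESeq2 and limma-voom called 0. Without WT replicate 1 they stood at 0.71, 0.73 and 0.77, with edgeR adjusted p of 0.0265, 0.0191 and 0.0138. H2-Ea-ps, the E alpha pseudogene of this strain, had 0 counts, and H2-Eb2 had 59 counts in all 6 libraries together.

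Cd74, the invariant chain that fills the class II groove until the endosome, stood at 297, 392 and 272 CPM in the KO libraries and 272, 197 and 206 CPM in the WT libraries (0.51 ± 0.20, edgeR adjusted p = 0.106). KO replicate 3 and WT replicate 1 were level. Its ratio to the summed class II chains was 0.772, 0.713 and 0.705 in the KO libraries and 0.704, 0.770 and 0.741 in the WT libraries, so the invariant chain and the chains it escorts varied together. Ciita, the class II transactivator, stood at 10.7, 12.5 and 8.85 against 9.95, 6.69 and 6.76 CPM (0.45 ± 0.22, edgeR adjusted p = 0.157). It overlaps the opposite-strand gene Dexi.

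Ctss, cathepsin S, which trims the invariant chain in endosomes, had the smallest adjusted p of the class II members. It stood at 44.0, 48.9 and 36.6 CPM in the KO libraries and 33.9, 22.9 and 16.9 CPM in the WT libraries (0.81 ± 0.25, 95% interval 0.25 to 1.38, edgeR adjusted p = 0.0612). All KO libraries were above all WT libraries. DESeq2, limma-voom and, with an adjusted p of 0.0132, the authors' deposited table called it higher, and without WT replicate 1 it was 1.13 (edgeR adjusted p = 0.00560).

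The DM proteins exchange the invariant chain fragment for peptide, and the DO proteins restrain DM. H2-DMb1 stood at 9.11, 14.3 and 9.38 CPM in the KO libraries and 8.66, 5.52 and 7.86 CPM in the WT libraries (0.57 ± 0.24, edgeR adjusted p = 0.126), without overlap. H2-DMa, its partner chain, did overlap, at 11.2, 16.5 and 10.9 against 12.6, 8.67 and 13.2 CPM (0.17 ± 0.23). H2-DMa overlaps Brd2 on the opposite strand. H2-DMb2 was at 0.545, 1.40 and 0.660 against 1.00, 0.334 and 1.52 CPM (-0.10 ± 0.58), and WT replicate 3 was highest.

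Of the DO chains, H2-Oa was at 0.305, 0.582 and 0.434 CPM in the KO libraries and 0.201, 0.250 and 0.156 CPM in the WT libraries (1.06 ± 0.40, edgeR adjusted p = 0.0991). Its groups did not overlap, on 4 to 23 counts a library. H2-Ob was at 1.15, 1.56 and 1.09 against 1.35, 1.52 and 2.66 CPM (-0.53 ± 0.33, edgeR adjusted p = 0.262). The 2 chains of DO therefore had fold changes of opposite sign, neither past the threshold. H2-Oa overlaps the antisense gene BC051537 over 2895 bases.

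Summed over its 13 genes, class II stood at 759, 1038 and 725 CPM in the KO libraries and 728, 499 and 534 CPM in the WT libraries. Class I, over 40 genes, stood at 1296, 1995 and 1634 against 1538, 1162 and 1182 CPM. In both sums KO replicate 2 was highest and WT replicates 2 and 3 were lowest, with KO replicate 1, KO replicate 3 and WT replicate 1 between. The ratio of class I to class II was 1.71, 1.92 and 2.25 in the KO libraries and 2.11, 2.33 and 2.21 in the WT libraries, with means of 1.96 ± 0.274 and 2.22 ± 0.109 (SD, n = 3). The groups overlapped, and on the log2 scale the KO mean lay 0.19 below the WT mean (0.96 ± 0.20 against 1.15 ± 0.07). Without the most abundant gene of each class the ratio was 1.99, 2.09 and 2.39 in the KO libraries and 2.31, 2.78 and 2.63 in the WT libraries. There the KO mean lay 0.26 below the WT mean on the log2 scale (1.10 ± 0.14 against 1.36 ± 0.14, SD, n = 3), again with overlap. No test was run on these ratios.

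**Figure D3:**
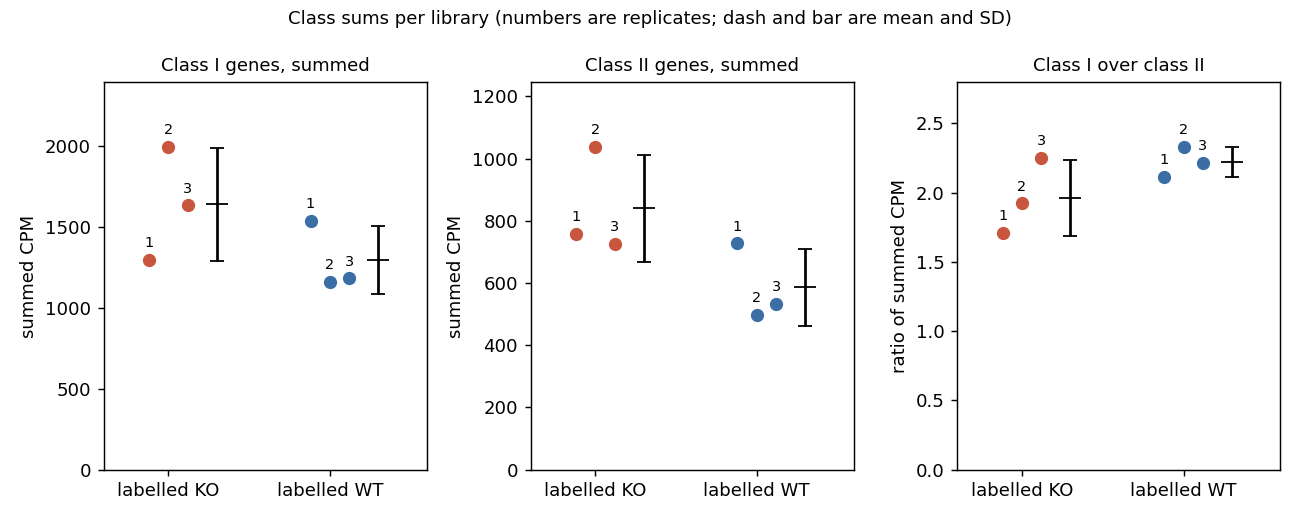
Points are libraries, numbered by replicate, and the dash and bar beside them are the mean and SD of 3. The left and middle panels give summed CPM of class I and class II genes, and the right panel gives their ratio. KO replicate 1 lies within the WT range of the class I sum, and KO replicate 3 within the WT range of the ratio.

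Marker sums of several cell types also differed between the labelled groups, in either direction. Fewer cells of a type and less RNA per cell cannot be told apart in whole tongue. The 5 pan-leukocyte genes summed to 106 to 140 CPM in the KO libraries and 63.7 to 103 CPM in the WT libraries, without overlap (median log2 fold change 0.58). The 12 dendritic and Langerhans cell genes summed to 48.8 to 62.8 against 37.7 to 53.0 CPM. By edgeR 0 of these 12 passed (at an unadjusted p under 0.05 there were 3 higher and 1 lower), and DESeq2 called 3 higher and 1 lower. The log2 fold changes of the 12 lay above 0 in 8 and below 0 in 4, with a median of 0.33. The 3 that DESeq2 called higher were Ccr7, the homing receptor for lymph nodes, Itgax, the integrin CD11c, and Irf8, a transcription factor of dendritic cells, at 1.17 ± 0.40, 0.92 ± 0.32 and 0.71 ± 0.22 by edgeR (edgeR adjusted p = 0.0793, 0.0792 and 0.0624). The 1 called lower was Zbtb46, a transcription factor of conventional dendritic cells, at -0.69 ± 0.25 (edgeR adjusted p = 0.0847). The 12 macrophage and monocyte genes summed to 257 to 329 against 300.1 to 327 CPM. Their median log2 fold change was -0.02, with 6 above and 6 below 0. By edgeR 1 was called lower, beside 7.43% of all genes, the phagocytic receptor Mertk (-0.70 ± 0.17, edgeR adjusted p = 0.0411). B cell genes were few, at 4.18 to 8.17 against 2.88 to 8.52 CPM for 8 genes (median -0.44 over the 6 tested), with Pax5 at 0 in some libraries.

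The T and NK cell genes measured, 12 of 13 on the list, summed to 18.1 to 28.1 CPM in the KO libraries and 4.49 to 15.7 CPM in the WT libraries. Of 9 tested 1 was called higher by edgeR, beside 4.81% of all genes. This was Cd8b1, a chain of the CD8 co-receptor for class I (1.88 ± 0.34, edgeR adjusted p = 0.0325). All 9 had log2 fold changes above 0, with a median of 1.41. By edgeR 7 were higher at an unadjusted p under 0.05, beside 18.2% of all genes. DESeq2 called 4 higher, beside 12.6% of all genes, and limma-voom 3, beside 6.17%. The 12 keratinocyte genes summed to 32149 to 41153 against 19569 to 26451 CPM, and the 15 skeletal muscle genes to 44683 to 63053 against 79037 to 145252 CPM. By edgeR 0 of 12 keratinocyte genes were called higher and 5 of 15 muscle genes lower, beside 4.81% and 7.43% of all genes. At an unadjusted p under 0.05 by edgeR 8 of the former were higher and 13 of the latter lower, beside 18.2% and 20.3%. DESeq2 called 9 of the former higher and 13 of the latter lower, beside 12.6% and 16.3%. The 8 endothelial genes summed to 367 to 429 against 511 to 675 CPM. The 8 fibroblast genes summed to 939 to 1288 against 1469.5 to 1768 CPM. Of these lists edgeR called 3 genes each lower, beside 7.43% of all genes, and DESeq2 7 and 5, beside 16.3%.

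Divided by the pan-leukocyte sum, class II stood at 6.99, 7.40 and 6.84 in the KO libraries and 7.06, 7.28 and 8.38 in the WT libraries. The groups overlapped in part, with KO replicates 1 and 3 below all WT libraries and WT replicate 3 above all KO libraries. Divided by the macrophage sum class II stood at 2.31, 3.32 and 2.82 against 2.37, 1.52 and 1.78. Divided by the dendritic and Langerhans cell sum it stood at 14.1, 16.5 and 14.9 against 13.7, 13.1 and 14.2. Class I divided by the pan-leukocyte sum stood at 11.9, 14.2 and 15.4 against 14.9, 17.0 and 18.6. Divided by the keratinocyte sum class I stood at 0.0315, 0.0493 and 0.0508 against 0.0585, 0.0439 and 0.0604. The groups overlapped in each of these ratios. With the mean of the pan-leukocyte genes as a term in the edgeR fit, the class medians were -0.11 (class I) and -0.03 (class II). With the mean of the muscle genes they were 0.06 and 0.04, with that of the keratinocyte genes -0.03 and 0.05, and 0 members passed in each of these fits, as did 0% of all genes tested. With sex as a term, which sets KO replicate 1 against the WT libraries, the medians were -0.00049 (class I) and 0.35 (class II), and 0 members and 0% of all genes passed. Which of these tissue or sex differences takes part in the members' values was not tested.

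**Figure D4:**
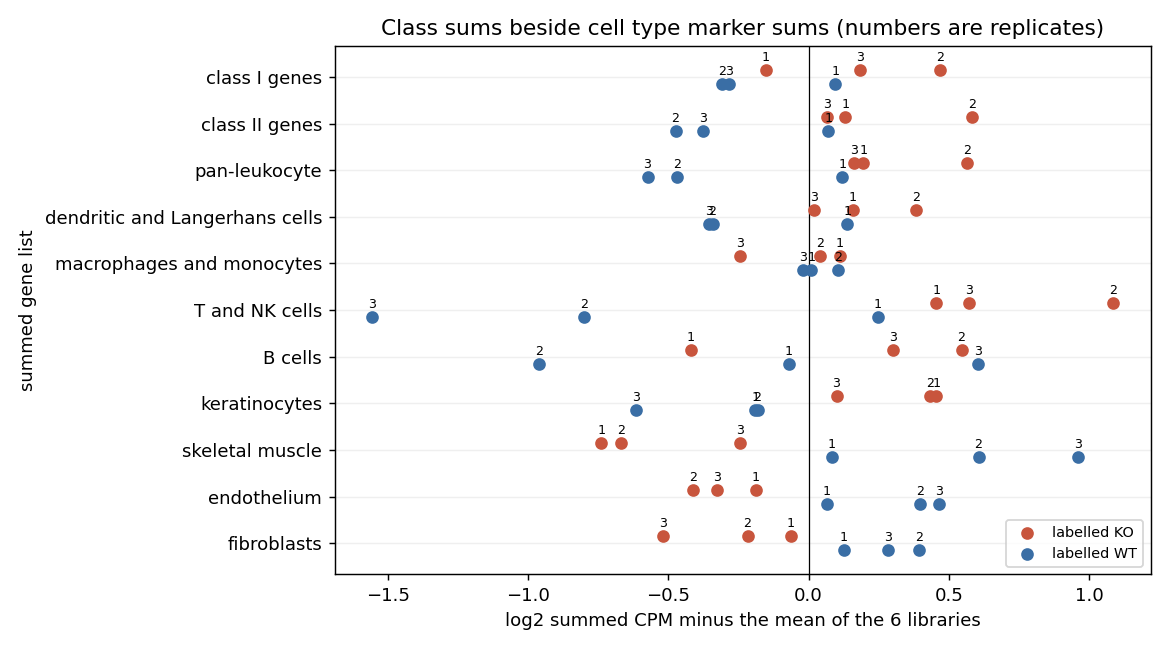
Each row is a gene list summed per library, as log2 CPM minus the mean of the 6 libraries, with libraries numbered by replicate and coloured by label. The class I, class II, pan-leukocyte, dendritic and Langerhans cell, and T and NK cell rows have KO replicate 2 highest and WT replicates 2 and 3 lowest. The other rows, among them the macrophage row, do not.

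**Figure D5:**
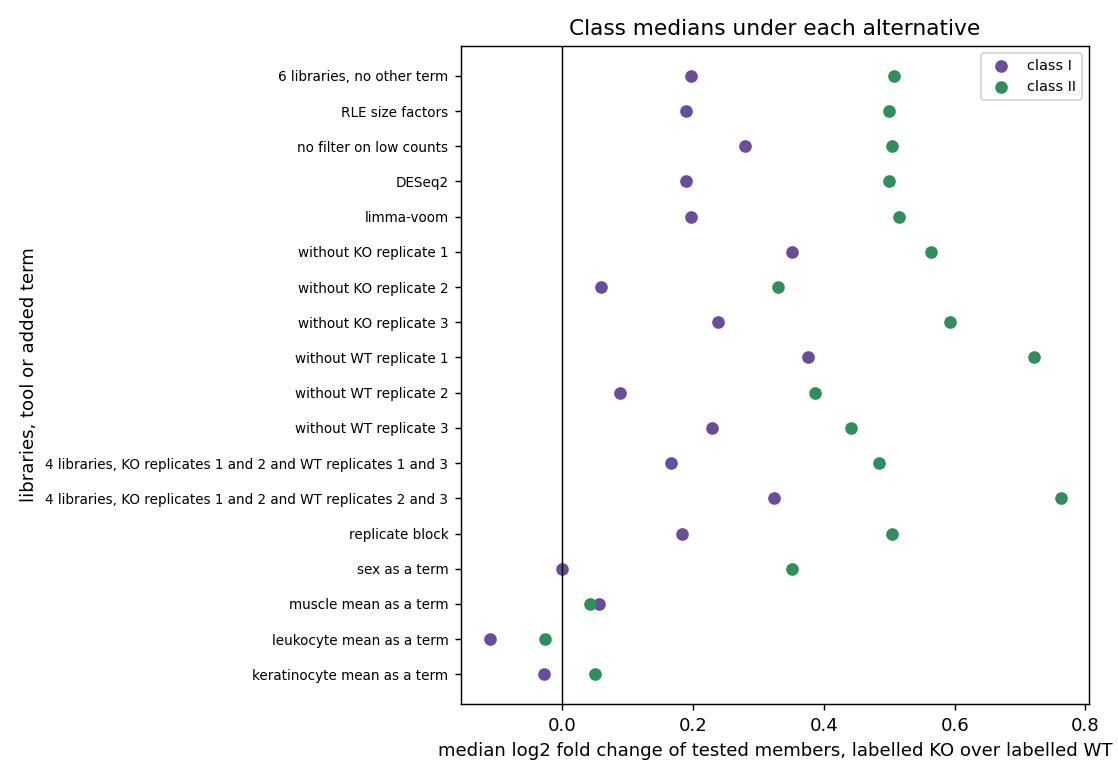
Median log2 fold change of the tested class I (purple) and class II (green) members under each alternative fit. Class II lies above class I except with the muscle mean as a term, and both lie within 0.12 of 0 with the muscle, leukocyte or keratinocyte mean as a term.

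The counts of calls in the wider pathway did not mark it out from all genes. Of 24 other class I pathway genes, 0 were higher and 1 was lower by edgeR. Of 21 other class II pathway genes the counts were also 0 and 1, beside 4.81% and 7.43% of all genes. At an unadjusted p under 0.05 the former had 3 higher and 3 lower and the latter 5 and 1, beside 18.2% and 20.3%. DESeq2 called 2 and 2 of the former and 3 and 1 of the latter, beside 12.6% and 16.3%. Ifngr2, a chain of the interferon-gamma receptor that drives class I and class II transcription, stood at 30.1, 35.3 and 36.9 CPM in the KO libraries and 47.1, 55.5 and 69.3 CPM in the WT libraries. It fell without overlap (-0.75 ± 0.16, edgeR adjusted p = 0.0371). Lgmn, legumain, an endosomal protease, stood at 90.0, 87.9 and 94.3 against 126, 135 and 216 CPM and also fell (-0.81 ± 0.21, edgeR adjusted p = 0.0450).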

How the data were processed

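RNA-seq gene counts of 6 libraries from mouse tongues were used. Per the file headers, the authors deposited raw read counts per gene, not normalised, beside the results of their DESeq2 comparison. These are, per the file headers, the p-value and adjusted p-value, the statistic (a score), the log2 fold change of WT over KO and its error, and the mean of counts over size factors (a signal). HTSeq, DESeq2, hg19 and mm10 are named in and credited to the submitters' processing notes. The sources used here do not give the aligner, annotation or strand setting. The 2 further deposited tables, of 4 of these libraries each, were not used.

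With R 4.3.3 and edgeR 4.0.16, the counts were filtered by filterByExpr (10 scaled counts in the libraries of a group, 15 in all), scaled by TMM, and tested by a robust quasi-likelihood fit with group as its only term. Benjamini-Hochberg adjustment covered every gene tested, and 0.05 was the threshold. Standard errors are the absolute log2 fold change over the square root of F, and intervals are at 95%. Levels are CPM on TMM-adjusted library sizes, and list means used a prior count of 2. DESeq2 1.42.0 and limma 3.58.1 were alternatives, with other scaling, no filter, left-out libraries, a replicate block and sex or tissue means as terms. The edgeR script was tested on simulated data. Exon lengths, places and overlaps came from GENCODE M21 on GRCm38, the assembly called mm10.

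The members, lists and motifs were chosen with earlier results of these data known. Values were given by library for the main chains, loading genes and transactivators, and for other members past the threshold or without overlap between groups.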

Additional observations from a re-analysis of the deposited data

How the results depend on the processing

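Counts of called members were the least stable values. Against 1 higher and 0 lower member, DESeq2 gave 4 and 1, limma-voom 2 higher, and leaving out a library 0 to 10 higher and 0 to 1 lower. The 4 libraries without KO replicate 3 and WT replicate 2 gave 0 members and 0 of all 15898 genes tested in either direction. That count of 0 therefore says nothing particular about the members. Those without KO replicate 3 and WT replicate 1 gave 9 and 1, beside 2386 higher and 2900 lower of 16002 genes. Sex, muscle, leukocyte and keratinocyte terms gave 0 higher each, and 0 of all 15903 genes in either direction, so these counts are not a loss particular to the members. The keratinocyte term was added after seeing the data. With the replicate block 2 were higher and 1 lower (Ctss, H2-Q10 and H2-T24), beside 1705 higher and 2112 lower of 15903 genes. Deviations of same-numbered libraries correlated at 0.12, -0.16 and 0.19 for replicates 1, 2 and 3, and the labels give no shared animal or day, so the numbers were not taken to pair the samples.

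The class I median of 0.20 was -0.00049 with sex, -0.11 with the leukocyte mean and -0.028 with the keratinocyte mean. The class II median of 0.51 was 0.043 with the muscle mean, -0.026 with the leukocyte mean and 0.050 with the keratinocyte mean. The KO minus WT difference in the log2 ratio of class I to class II was -0.19. It was -0.38 with sex, 0.10 with the muscle mean and 0.013 with the keratinocyte mean. Leaving out a library gave 0.06 to 0.38, 0.33 to 0.72 and -0.29 to -0.09 for these 3 values. The difference in the ratio was fitted by least squares to the log2 ratio of each library, so neither library scaling nor any test enters it. The cause of these shifts was not tested.

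Several log2 fold changes not past the threshold changed sign. With sex as a term H2-D1 was -0.045, Tap2 -0.063, Tapbp -0.00049, Psmb9 -0.17, Psmb10 -0.31 and H2-DMa -0.038. With the muscle mean Tap1 was -0.038, Tapbp -0.011, H2-Aa -0.043, Ciita -0.18, Ctss -0.012, H2-DMa -0.0062, H2-Ob 0.049 and H2-M2 -0.092. With the leukocyte mean H2-K1 was -0.097, H2-D1 -0.12, B2m -0.11, Tap1 -0.19, Tapbp -0.069, Psmb9 -0.11, Psmb10 -0.059, H2-Aa -0.086, H2-Ab1 -0.022, H2-Eb1 -0.026, Ciita -0.080 and H2-DMa -0.17. With the keratinocyte mean B2m was -0.055, Tap1 -0.091, Tapbp -0.031, Nlrc5 -0.0070, H2-Aa -0.071, H2-Eb1 -0.013, Ciita -0.20, Ctss -0.18, H2-DMb2 0.28, H2-Ob 0.28 and H2-M2 -0.77. H2-DMb2 was 0.071 by limma-voom and 0.12 in the 4 libraries without WT replicate 1, where Psmb10 was -0.064. Psmb10 was -0.029 in the 4 without WT replicate 2. Leaving out a library gave -0.014 to 0.13 for Tapbp, -0.0010 to 0.35 for Psmb9, -0.061 to 0.17 for Psmb10, -0.051 to 0.27 for H2-DMa and -0.62 to 0.39 for H2-DMb2. Members under 1 CPM rest on few counts, above all in WT replicate 3.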
